A study of Homo sapiens with 6 samples.

Results

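Genes of fatty acid synthesis, elongation and desaturation were examined in T24 cells after knockdown of UBC9. They were SCD, FADS1, FADS2, FASN, ACACA, ACLY, ELOVL1, ELOVL5, ELOVL6 and SREBF1, chosen by symbol from the 58174 genes in the files, and all 10 were expressed highly enough to be among the 12428 genes tested. T24 is a long-established line of human bladder cancer cells. In the 3 shRNA_UBC9 samples the cells carried an shRNA against UBC9, the conjugating enzyme of SUMO modification, and in the 3 shRNA_NC samples a scrambled control shRNA. Both groups were made with lentivirus and kept under puromycin as stable lines, and polyA RNA was sequenced. One hairpin against UBC9 was used, so a response to that hairpin and a response to the loss of UBC9 cannot be told apart here. The labels do not say that the 3 samples of a group came from separate cultures, and p-values then measure only the spread between these samples, which may be technical.

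Cells build fatty acids from citrate. ATP citrate lyase (ACLY) cleaves citrate to acetyl-CoA, acetyl-CoA carboxylase (ACACA) makes malonyl-CoA from it, and fatty acid synthase (FASN) joins the units into palmitate. ELOVL enzymes lengthen the chains, stearoyl-CoA desaturase (SCD) makes monounsaturated oleate and palmitoleate, and FADS1 and FADS2 add the double bonds of long polyunsaturated chains. Many of these genes are targets of SREBP transcription factors. Together with SCAP, these factors are held in the endoplasmic reticulum by the INSIG proteins until sterols or unsaturated fats run low. SREBF1 encodes the one best known for fatty acid genes.

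Values are RPKM, reads scaled to transcript length and to the mapped reads of the sample. From the worth of 1 read in low genes, samples were estimated to hold 28200000 to 36100000 mapped reads. Of 11 urothelial and epithelial markers, 6 were tested and 5 of these (KRT7, KRT8, KRT18, KRT19 and GATA3) were lower in shRNA_UBC9, beside 18.0% of all tested genes. EPCAM, the other one tested, had 0.412, 0.986 and 0.575 RPKM in shRNA_NC and 2.51, 1.27 and 0.732 RPKM in shRNA_UBC9 and did not pass. The summed level of the 11 markers went from 943.4 to 1116.2 RPKM in shRNA_NC to 430.1 to 568.3 RPKM in shRNA_UBC9. KRT5 was listed at 0 in all samples, and CDH1, UPK1B, UPK2 and UPK3A were near 0. The part of this marker change in the results on fatty acid genes was not tested. Summed adipocyte markers reached at most 0.102 RPKM in any sample, with 3 of the 4 at 0 throughout. The leukocyte, endothelial and fibroblast sums were at most 0.979, 3.26 and 1.15 RPKM. The endothelial marker CDH5 fell from 2.87 ± 0.287 to 0.619 ± 0.390 RPKM (SD, n = 3 each). The fibroblast marker COL1A1, at low level, rose from 0.377 ± 0.137 to 0.818 ± 0.221 RPKM (SD, n = 3 each). VIM, CDH2, ZEB1 and FN1 did not pass the test.

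After knockdown 6 of the 10 genes fell and 1 rose, and the log2 fold change was largest for SCD. A gene passed the test at an adjusted p below 0.05 (limma on log2(RPKM + 0.1), adjusted over all tested genes) and was called a DEG when its log2 fold change also exceeded 1 in either direction. Of the 10 genes, 6 passed with lower expression in shRNA_UBC9 (SCD, FADS2, ACACA, FADS1, SREBF1 and ELOVL5), beside 18.0% of all tested genes. ELOVL1 alone passed with higher expression, beside 18.8% of all tested genes. With a replicate block 5 passed with lower expression, all but ELOVL5. FASN, ELOVL6 and ACLY did not pass. DEGs were SCD and FADS2, both lower, beside 2.70% of all tested genes, and none of the 10 was a DEG in the other direction, beside 5.20%. The median log2 fold change of the 10 genes was -0.50, and that of all tested genes was 0.005. Fold changes on this scale understate the change of low genes. In bulk RNA, fewer cells expressing a gene and less RNA per cell cannot be told apart.

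**Figure D1:**
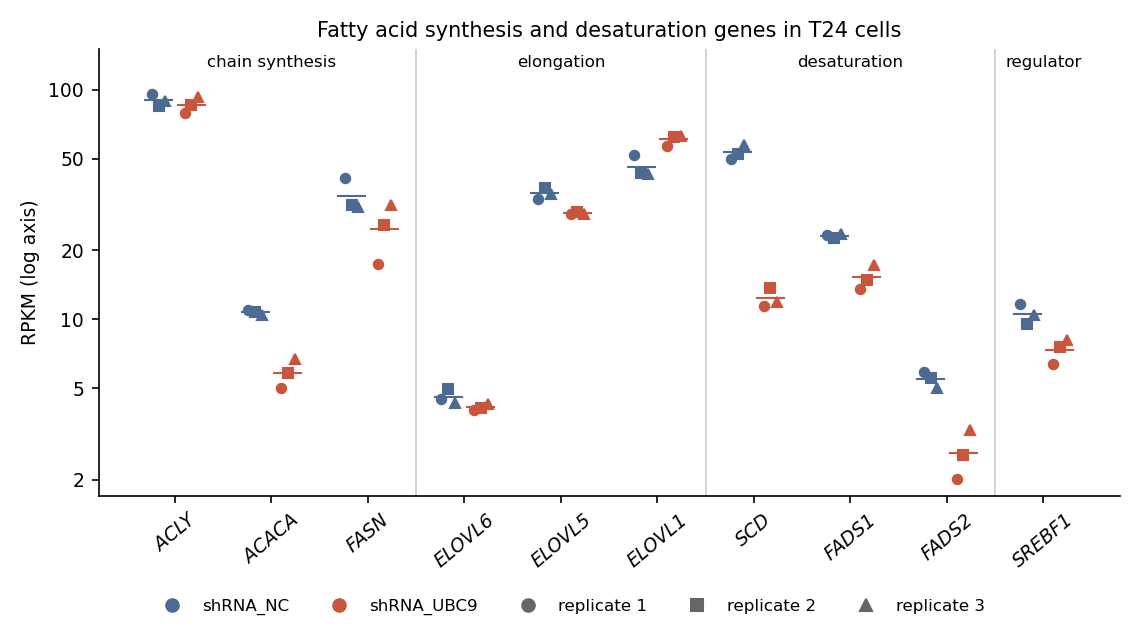
RPKM on a log axis of the 10 genes in each of the 6 samples, grouped by role, with a horizontal bar at the mean of the 3 samples. The groups do not overlap for 8 genes, 7 of them lower in shRNA_UBC9 and ELOVL1 higher, and they overlap for ACLY and FASN.

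In 7 of the 10 genes every shRNA_UBC9 sample lay below every shRNA_NC sample, as for 25.4% of all tested genes. The opposite held for ELOVL1, as for 25.7% of all tested genes. The plots of RPKM by sample and of fold changes with their intervals show a graded series from SCD down to ACLY. Within shRNA_UBC9, replicate 1 held the lowest value of the 3 samples for 9 of the 10 genes, as for 41.7% of all tested genes. It also stood apart in list genes, at 10.2 RPKM for INSIG2 and 17.9 RPKM for HILPDA, a lipid droplet protein, against 4.35 RPKM and at most 6.37 RPKM in the other knockdown samples. Without replicate 1 the same counts of 6 lower and 1 higher passed, and SCD alone was a DEG.

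**Figure D2:**
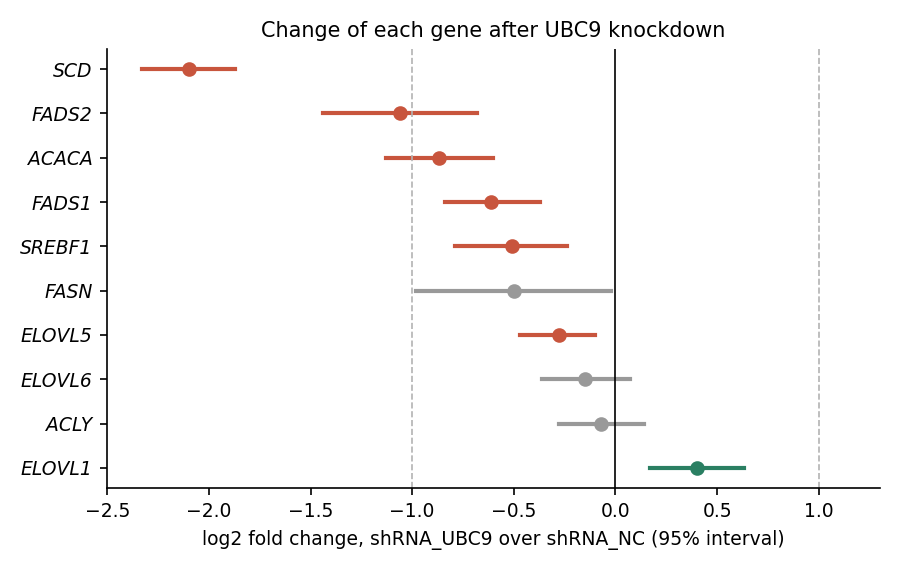
Log2 fold change of each gene, shRNA_UBC9 over shRNA_NC, with its 95% interval from limma. Genes lower at an adjusted p below 0.05 are red, the one that was higher is green and those that did not pass are grey, and dashed lines mark a change of 1 in either direction; SCD lies at -2.10 and ELOVL1 at 0.40.

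SCD, the main desaturase of saturated chains, fell to 0.232 of its control level. It lies on chromosome 10 (GRCh38, bases 100347233 to 100364826, plus strand). Letters of the NF-Y box, CCAAT, occur at 2 places in its promoter window (RefSeq, GRCh38.p14, from 250 bases before to 50 after the start site), in the plus strand, and are shown in capitals with 10 bases on each side because SCD is the gene with the largest change:
SCD, chr10:100346994-100347018: ttgcgccgagCCAATggcaacggca
SCD, chr10:100347037-100347061: ttcccttcggCCAATgacgagccgg
The matches begin at positions -229 and -186 relative to the start site. A search on both strands found these letters in 4 of the 9 genes with a promoter in the table (all but FASN), namely SCD, ACLY, ELOVL1 and ELOVL5, and in 35.7% of all 27305 promoters. Among the 9180 promoters of tested genes the share was 37.1%. The sterol element letters TCACNCCAC were in none of the 9 windows, in 1.15% of all promoters and in 1.11% of those of tested genes. At such shares a match in any 9 windows is unlikely. The search covered only these letters in short windows, so it does not show that the genes lack sterol elements. The E-box CACGTG was in the window of ELOVL5, in 7.43% of all promoters and in 10.3% of those of tested genes. Of the 4 genes with the NF-Y letters, SCD and ELOVL5 were lower, ACLY did not pass and ELOVL1 was higher. Whether NF-Y has a part in these changes was not tested.

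SCD was at 49.9, 52.7 and 57.4 RPKM in the shRNA_NC samples. In the shRNA_UBC9 samples it was at 11.4, 13.7 and 11.9 RPKM. All 3 knockdown samples sat close together and far below the controls. The mean went from 53.3 ± 3.77 to 12.4 ± 1.19 RPKM (SD, n = 3 each), and the log2 fold change was -2.10 (95% interval -2.33 to -1.87, adjusted p = 1.4e-05, limma). By log2 fold change SCD ranked 42 from the lowest among all tested genes. SCDP1, a processed copy of SCD, was listed at 0 in all samples. The neighbouring coding genes within 100 kb were chosen for a look after the values had been seen. CWF19L1 was at 9.17 ± 0.779 RPKM in shRNA_NC and 9.49 ± 0.766 RPKM in shRNA_UBC9 (SD, n = 3 each). BLOC1S2 was at 8.59 ± 0.709 and 9.31 ± 0.804 RPKM (SD, n = 3 each). Neither passed the test, while the long non-coding RNA OLMALINC went from 1.99 ± 0.340 to 1.23 ± 0.238 RPKM (SD, n = 3 each) and was lower (log2 fold change -0.65, adjusted p = 0.024, limma). SCD5, the second human stearoyl-CoA desaturase, was at 4.39 ± 0.0846 RPKM in shRNA_NC and at 4.02 ± 0.0612 RPKM in shRNA_UBC9 (SD, n = 3 each), which did not pass (log2 fold change -0.12, 95% interval -0.32 to 0.07, adjusted p = 0.28, limma). Its shRNA_UBC9 values of 4.09, 3.98 and 3.99 RPKM nonetheless all lay below the lowest shRNA_NC value, 4.32 RPKM.

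The front-end desaturases FADS2 and FADS1, which act in turn on the path from dietary linoleate to arachidonate, were both lower. FADS2 was at 5.88, 5.54 and 5.0 RPKM in shRNA_NC. Its values were 2.01, 2.56 and 3.28 RPKM in shRNA_UBC9. The highest knockdown sample stayed below the lowest control, but the knockdown samples spread more widely. The log2 fold change was -1.06 (SE 0.17, adjusted p = 0.0022, limma), just past the DEG limit. With a pseudocount of 1 it was -0.85, and without shRNA_UBC9 replicate 1 it was -0.89, so that FADS2 still passed the test but was no DEG. FADS1 had nearly equal control values of 23.3, 22.6 and 23.5 RPKM. In shRNA_UBC9 it had 13.6, 14.8 and 17.3 RPKM, all below the controls, a log2 fold change of -0.61 (SE 0.10, adjusted p = 0.0028, limma).

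FADS1 (chromosome 11, bases 61799627 to 61829318, minus strand) and FADS2 (bases 61792980 to 61867354, plus strand) are neighbours transcribed in opposite directions. In the GENCODE release 44 annotation the span of FADS2 covers FADS1 and overlaps FEN1, and the sources used here do not say that strand was used in counting, so reads in the shared stretches cannot be assigned with certainty. FEN1, a DNA repair and replication nuclease, went from 66.3 ± 4.0 to 50.8 ± 7.68 RPKM (SD, n = 3 each) and was lower (log2 fold change -0.39, adjusted p = 0.035, limma). FADS3, the third gene of the cluster, had 6.82, 6.74 and 6.09 RPKM in shRNA_NC and 5.98, 5.37 and 4.80 RPKM in shRNA_UBC9. These groups did not overlap, yet its log2 fold change of -0.28 did not pass (adjusted p = 0.07, limma). Other tested neighbours within 100 kb did not all move in the same direction as FADS1 and FADS2. MYRF was lower (log2 fold change -0.50, adjusted p = 0.031, limma), TMEM258, DAGLA and RAB3IL1 did not pass, and FTH1, the ferritin heavy chain, rose from 664.6 ± 44.7 to 1958.4 ± 292.4 RPKM (SD, n = 3 each).

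Together SCD, FADS1 and FADS2 summed to 79.1 to 85.9 RPKM in the shRNA_NC samples. In shRNA_UBC9 the sum was 27.1 to 32.5 RPKM. The share held by SCD was 63.1%, 65.2% and 66.8% in shRNA_NC and 42.3%, 44.1% and 36.8% in shRNA_UBC9. The groups did not overlap, and the mean share differed by -24.0 percentage points (exact two-sided permutation test, p = 0.1, the smallest that 3 samples against 3 allow). Among these 3 genes SCD thus held the majority in each control and was below FADS1 in each knockdown sample.

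**Figure D3:**
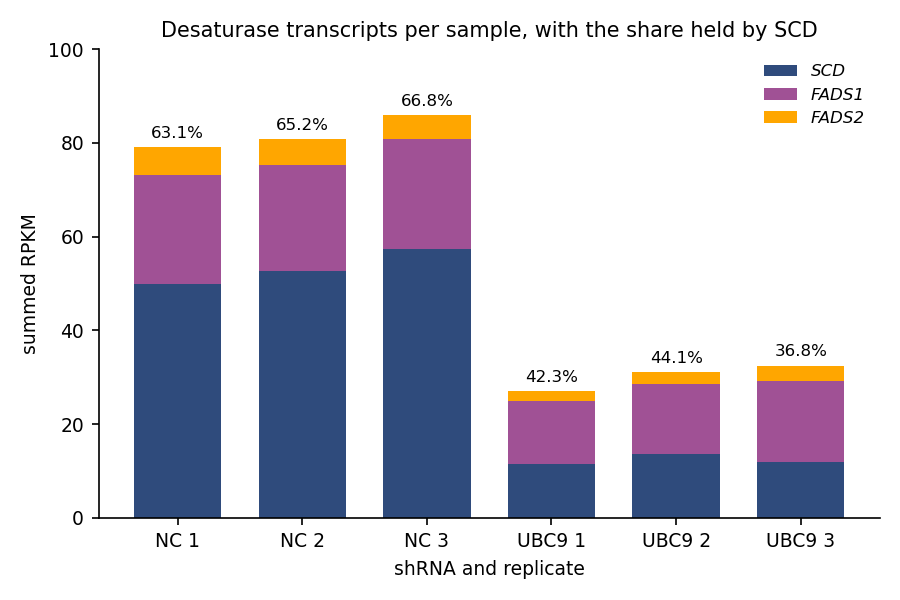
Stacked RPKM of SCD, FADS1 and FADS2 in each sample, with the percentage of the stack held by SCD printed above it. The stacks reach 79.1 to 85.9 RPKM in shRNA_NC and 27.1 to 32.5 RPKM in shRNA_UBC9.

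The enzymes that make the chain did not move alike. ACACA, which makes malonyl-CoA and sets the pace of synthesis, had 11.0, 10.7 and 10.4 RPKM in shRNA_NC. In shRNA_UBC9 it had 5.0, 5.85 and 6.74 RPKM. The control values lay within 1 RPKM of each other and far above all knockdown values, and the log2 fold change was -0.87 (SE 0.12, adjusted p = 0.001, limma). ACACB, the mitochondrial carboxylase, was below the expression filter, at 0.373 ± 0.0683 RPKM in shRNA_NC and 0.288 ± 0.0102 RPKM in shRNA_UBC9 (SD, n = 3 each).

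FASN varied most among the 10 genes in both groups, relative to its mean. It had 41.3, 31.5 and 30.9 RPKM in shRNA_NC. Its knockdown values were 17.4, 25.7 and 31.3 RPKM. The highest knockdown sample lay within the control range, and the coefficient of variation in shRNA_UBC9 was 28.2%. The log2 fold change of -0.50 (95% interval -0.98 to -0.02) did not pass after adjustment (adjusted p = 0.094, limma). Leaving out shRNA_UBC9 replicate 3, the sample that overlapped, gave -0.69 (adjusted p = 0.026, limma), while without shRNA_UBC9 replicate 1 it was -0.27 (adjusted p = 0.20, limma).

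ACLY, the most abundant of the 10 transcripts in both groups, had 95.8, 85.1 and 89.4 RPKM in shRNA_NC and 79.1, 85.5 and 92.8 RPKM in shRNA_UBC9. The ranges overlapped, and the log2 fold change was -0.07 (95% interval -0.28 to 0.14, adjusted p = 0.57, limma), so the interval leaves out a change of 1 in either direction. ACLY, ACACA and SREBF1 lie on chromosome 17 with FASN, far apart from each other. ACACA lies at bases 37084992 to 37406836, ACLY at 41866917 to 41930542, FASN at 82078338 to 82098294 and SREBF1 at 17810399 to 17837002, all on the minus strand.

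The 3 elongases differed in direction. ELOVL1, which lengthens saturated and monounsaturated very long chains used in sphingolipids, was the only one of the 10 genes that rose. It had 51.9, 43.5 and 43.1 RPKM in shRNA_NC and 57.1, 62.3 and 63.0 RPKM in shRNA_UBC9. The lowest knockdown sample was above the highest control, and the log2 fold change was 0.40 (SE 0.10, adjusted p = 0.015, limma). Its call was lost without shRNA_NC replicate 3 (0.35, adjusted p = 0.066, limma) and without shRNA_UBC9 replicate 2 (0.38, adjusted p = 0.053, limma).

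ELOVL5, an elongase of polyunsaturated chains that works with the FADS enzymes, had 33.3, 37.4 and 35.2 RPKM in shRNA_NC and 28.8, 29.3 and 28.8 RPKM in shRNA_UBC9. The knockdown values were almost equal and below all controls. Its log2 fold change of -0.28 (SE 0.08, adjusted p = 0.025, limma) was the smallest that passed, and 4 of the 6 fits that left out a replicate lost the call (adjusted p from 0.065 to 0.084 in those without shRNA_NC replicates 2 and 3 and shRNA_UBC9 replicates 2 and 3, limma). It was also lost in the fit with a replicate block (adjusted p = 0.071, limma). ELOVL6, which extends palmitate to stearate, the substrate of SCD, had 4.48, 4.99 and 4.33 RPKM in shRNA_NC and 4.04, 4.09 and 4.29 RPKM in shRNA_UBC9. These groups just failed to overlap, and the log2 fold change of -0.15 did not pass (95% interval -0.36 to 0.07, adjusted p = 0.25, limma). ELOVL1 lies on chromosome 1 (bases 43363398 to 43368074), ELOVL5 on chromosome 6 (53267398 to 53349179) and ELOVL6 on chromosome 4 (110045846 to 110199199), all on the minus strand.

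SREBF1, the regulator, had 11.7, 9.54 and 10.4 RPKM in shRNA_NC. In shRNA_UBC9 it had 6.39, 7.57 and 8.15 RPKM, all below the controls, a log2 fold change of -0.51 (SE 0.12, adjusted p = 0.012, limma). The files give 1 value per gene, so its transcript forms were not separated. SREBF2, which encodes the related factor best known for cholesterol genes, had 24.9, 20.6 and 24.7 RPKM in shRNA_NC and 18.5 to 20.9 RPKM in shRNA_UBC9. Its groups overlapped and its log2 fold change of -0.24 did not pass (adjusted p = 0.105, limma).

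The amount by which one gene changed against another was compared within each sample, as the difference of log2(RPKM + 0.1), for 9 pairs. In 8 pairs the groups did not overlap, each with an exact two-sided permutation p = 0.1, the smallest possible, and an adjusted p = 0.112 over the pairs. No pair passed at an adjusted p below 0.05, which this test cannot give with groups of this size. The shifts describe these samples, and their intervals are not adjusted over the pairs. Pairs that hold SCD share its fall, so they are not separate results. How often other pairs of tested genes would not overlap was not computed. SCD fell relative to FASN by 1.60 (95% interval -2.41 to -0.78) and relative to FADS1 by 1.50 (-1.87 to -1.12). Relative to FADS2 the shift of SCD was -1.04 (-1.68 to -0.40), and relative to SCD5 it was -1.98 (-2.25 to -1.70). FADS1 gained on FADS2 by 0.46 (0.11 to 0.80), although a pseudocount of 1 lowered this to 0.28. ELOVL1 gained on ELOVL5 by 0.68 (0.30 to 1.06). SREBF1 moved by -0.28 relative to SREBF2 (-0.51 to -0.04). FASN against ACACA was the pair that overlapped, with a shift of 0.37 and an interval that held 0 (-0.11 to 0.84, exact permutation p = 0.2). For ELOVL6 against ELOVL5 the shift was 0.14, and its interval, from just under 0 to 0.28, also held 0.

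In order of level, RPKM in shRNA_NC ran from ACLY at 90.1 ± 5.40 through SCD, ELOVL1, ELOVL5, FASN, FADS1, ACACA, SREBF1 and FADS2 to ELOVL6 at 4.60 ± 0.350 (SD, n = 3). Sample ranges overlapped between SCD and ELOVL1, between ELOVL5 and FASN, and between ACACA and SREBF1. In shRNA_UBC9 the order was ACLY, ELOVL1, ELOVL5, FASN, FADS1, SCD, SREBF1, ACACA, ELOVL6 and FADS2, from 85.8 ± 6.90 to 2.61 ± 0.636 RPKM (SD, n = 3). SCD went from rank 2 to rank 6, and the ranges of FADS1 and SCD just overlapped across samples. By the exon length of GENCODE release 44, FADS2 rested on an estimated 760 to 2020 reads per sample, ELOVL6 on an estimated 880 to 1260 and ACLY on an estimated 13640 to 15760. The annotation behind the RPKM is not given, and a shorter gene length there would mean fewer reads.

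Other genes of lipid metabolism were read from 6 lists, together 143 genes of which 119 were tested. Of these, 28 (23.5%) passed with lower expression, beside 18.0% of all tested genes, and 22 (18.5%) with higher expression, beside 18.8%. DEGs were 6 in each direction (5.04%), beside 2.70% lower and 5.20% higher of all tested genes. The higher calls were thus near the background. Of the lower ones, 11 of the 28 calls and 3 of the 6 DEGs were in the list of SREBF2-driven cholesterol genes. In fatty acid synthesis and activation 5 of 17 tested genes (29.4%) were lower and 2 (11.8%) higher, beside 18.0% and 18.8% of all tested genes (median log2 fold change -0.09). SLC25A1, the mitochondrial citrate carrier that feeds ACLY, went from 48.4 ± 5.60 to 29.0 ± 2.70 RPKM, and PRKAA1, a catalytic subunit of AMP-activated kinase, from 18.6 ± 1.46 to 11.3 ± 0.964 RPKM (SD, n = 3 each). ACSL5, which activates fatty acids to their CoA esters, was the DEG of the list (5.88%, beside 5.20% higher of all tested genes). It rose from 2.21, 2.62 and 2.64 RPKM in shRNA_NC to 10.5, 12.7 and 8.10 RPKM in shRNA_UBC9 (log2 fold change 2.0, SE 0.16, adjusted p = 0.00011, limma).

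Among 18 tested genes of the other elongation and desaturation list, 3 (16.7%) were higher and 2 (11.1%) lower, no more than the 18.8% and 18.0% of all tested genes (median -0.06). Both DEGs (11.1%, beside 5.20% higher of all tested genes) were elongases of very long chains that rose. ELOVL4 had 1.10, 1.01 and 1.16 RPKM in shRNA_NC and 3.30, 2.56 and 2.31 RPKM in shRNA_UBC9, a log2 fold change of 1.23 (adjusted p = 0.00073, limma) that was 0.83 with a pseudocount of 1. ELOVL7 had 1.90, 3.11 and 1.97 RPKM in shRNA_NC and 7.76, 6.16 and 5.15 RPKM in shRNA_UBC9, a log2 fold change of 1.43 (adjusted p = 0.0016, limma). HACD3 and HACD2, dehydratases of the elongation cycle, were the 2 that fell, by 0.66 and 0.53 on the log2 scale.

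Of the SREBP control and partner factors, 4 of 19 tested genes (21.1%) were higher and 3 (15.8%) lower, near the 18.8% and 18.0% of all tested genes (median 0.08). The single DEG (5.26%, beside 2.70% lower of all tested genes) was INSIG1. This gene's product retains SCAP in the endoplasmic reticulum, and INSIG1 is itself an SREBP target. It had 12.8, 15.6 and 12.3 RPKM in shRNA_NC and 3.52, 4.36 and 3.60 RPKM in shRNA_UBC9, a log2 fold change of -1.80 (SE 0.12, adjusted p = 5.4e-05, limma). INSIG2 had 10.2 RPKM in shRNA_UBC9 replicate 1 and 4.35 RPKM in each of the other knockdown samples, against 3.68 to 4.13 RPKM in shRNA_NC, and did not pass (adjusted p = 0.17, limma). NR1H2, an oxysterol receptor of the LXR family, went from 8.55 ± 1.06 to 16.1 ± 0.802 RPKM (SD, n = 3 each) and was higher (log2 fold change 0.91, adjusted p = 0.00063, limma). SCAP had 9.44 ± 1.18 and 9.13 ± 0.980 RPKM (SD, n = 3 each), and MLXIPL was listed at 0 in all samples.

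The SREBF2-driven cholesterol genes were the list with the lowest median (-0.40). Of 18 tested genes 11 (61.1%) were lower, beside 18.0% of all tested genes, and none passed with higher expression, beside 18.8%. The list held 3 DEGs (16.7%), all of them lower, beside 2.70% of all tested genes. TMEM97, an endoplasmic reticulum protein that binds sterols, was among them. It had 20.4, 21.6 and 17.5 RPKM in shRNA_NC and 5.08, 9.17 and 8.96 RPKM in shRNA_UBC9. All knockdown samples were below all controls, and the log2 fold change was -1.39 (SE 0.21, adjusted p = 0.0019, limma).

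In glycerolipid synthesis and lipid droplets, 8 of 20 tested genes were higher, beside 18.8% of all tested genes, and 2 lower, beside 18.0% (median 0.27). G0S2, an inhibitor of the lipase PNPLA2, had 38.3, 37.9 and 26.2 RPKM in shRNA_NC and 372.1, 357.6 and 304.2 RPKM in shRNA_UBC9, a log2 fold change of 3.35 (SE 0.16, adjusted p = 1.4e-05, limma). The summed level of the list went from 259.3 to 287.9 RPKM in shRNA_NC to 573.7 to 671.9 RPKM in shRNA_UBC9, and most of that rise was G0S2. PLIN2, a lipid droplet coat protein, had 2.91, 3.60 and 3.03 RPKM in shRNA_NC and 30.1, 9.84 and 5.69 RPKM in shRNA_UBC9. All knockdown samples were above all controls, but they differed among themselves, and the log2 fold change of 1.88 (adjusted p = 0.02, limma) was 1.22 without shRNA_UBC9 replicate 1. The PLIN2 call was lost without shRNA_NC replicate 1 (adjusted p = 0.065, limma), without shRNA_NC replicate 3 (adjusted p = 0.06, limma) and when low genes were kept (adjusted p = 0.061, limma).

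In the fatty acid uptake and oxidation list 5 of 27 tested genes were higher and 5 lower (18.5% each way), which is the share of all tested genes (18.8% and 18.0%, median 0.08). PPARG, a nuclear receptor that drives lipid storage, fell from 14.5, 17.5 and 20.6 RPKM in shRNA_NC to 6.83, 2.49 and 3.32 RPKM in shRNA_UBC9 (log2 fold change -2.15, SE 0.32, adjusted p = 0.0017, limma). HADH, a dehydrogenase of beta-oxidation, went from 3.42 ± 0.185 to 1.59 ± 0.149 RPKM (SD, n = 3 each). HADH thus had a log2 fold change of -1.06 (adjusted p = 0.00038, limma), or -0.77 with a pseudocount of 1. CPT1A, an enzyme of fatty acid entry into mitochondria, was higher by 0.91 (adjusted p = 0.0023, limma). ACOT4, an acyl-CoA thioesterase at low level, rose by 1.17 (adjusted p = 0.019, limma), a call lost in 4 of the 6 fits that left out a replicate (adjusted p from 0.05 to 0.07 without shRNA_NC replicates 1 and 3 and shRNA_UBC9 replicates 1 and 2, limma) and when low genes were kept (adjusted p = 0.059, limma).

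**Figure D4:**
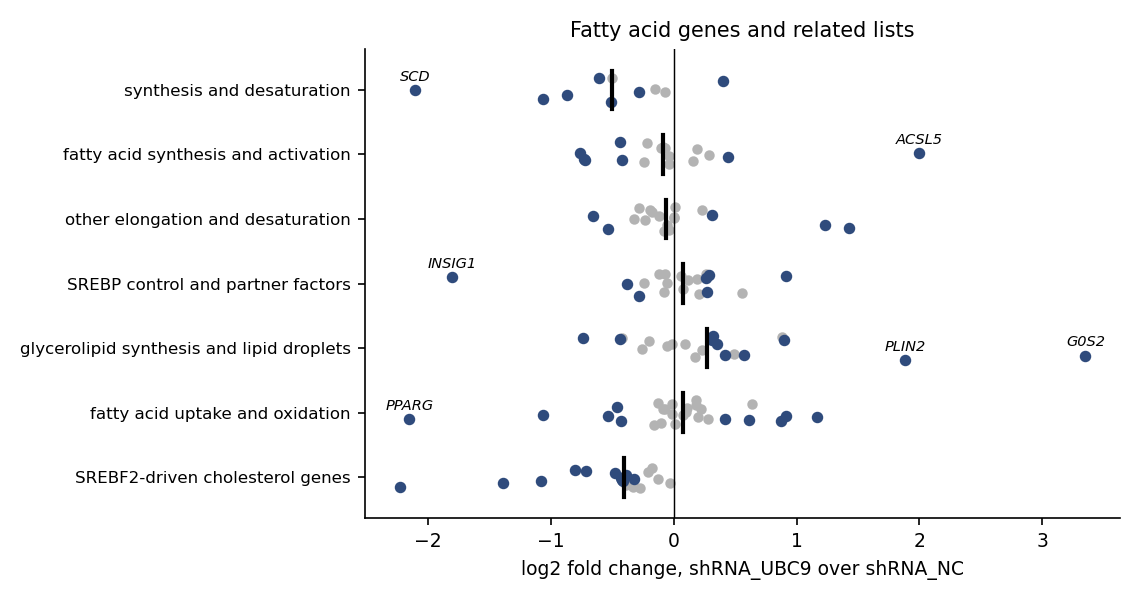
Log2 fold change, shRNA_UBC9 over shRNA_NC, of the 10 genes (top row) and of the tested genes of 6 related lists, 1 point per gene, with blue points at an adjusted p below 0.05 and a black bar at the median. The synthesis and desaturation genes and the cholesterol genes have the lowest medians, -0.50 and -0.40, and the lipid droplet list the highest, 0.27.

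Among all tested genes, the log2(RPKM + 0.1) pattern most like that of SCD over the 6 samples was that of TMC6 (Pearson's r = 0.9992), followed by PHACTR4 (0.9989), VAMP7 (0.9988), SYPL1 (0.998) and UGDH (0.9978). All share the low values of the 3 knockdown samples, so that r mainly reflects the 2 groups. Of these, UGDH, which makes UDP-glucuronate, had a log2 fold change of -2.29 beside -2.10 for SCD and went from 28.1 ± 1.45 to 5.69 ± 0.802 RPKM (SD, n = 3 each), whereas TMC6 went from 6.85 ± 0.153 to 4.58 ± 0.153 RPKM (SD, n = 3 each).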

How the data were processed

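The authors trimmed adaptors, aligned reads to GRCh38 in the CLC Biomedical Genomics Workbench under default settings, and deposited 1 file of RPKM per sample. The annotation release, multi-mapping and strand settings are not given in the sources used here. No counts were used. Values were taken to log2(RPKM + 0.1), the 12428 genes with at least 0.5 RPKM in at least 3 samples were kept, and both groups were fitted with limma 3.58.1 (eBayes with intensity trend, R 4.3.3), with Benjamini-Hochberg adjustment over all tested genes. DEGs had an adjusted p below 0.05 and a log2 fold change beyond 1. Depth was estimated, after the data were seen, from the smallest RPKM steps and exon lengths of GENCODE release 44. The intervals of pair differences use the spread between samples. In simulated data of 12428 genes, 88% of 100 genes changed by 1 and 98% of 100 genes changed by 2 on the log2 scale passed the test. Noise there was drawn separately for each gene, and far more genes, 4576, passed in the real data. These shares may therefore not hold for the real data. The genes and lists were chosen with earlier results of these data known. Named were the 10 genes, list DEGs, genes in pairs, the 5 genes most like SCD and some others that illustrate a list or a neighbourhood, picked after their values were seen. Alternatives were other pseudocounts, filters, normalizations and thresholds, no trend, a replicate block and each replicate left out. Python 3.11.15, pandas 2.3.3, scipy 1.17.1 and matplotlib 3.10.9 were used. The levels of the targeted gene and of some list genes are not reported here.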

Additional observations from a re-analysis of the deposited data

How the results depend on the processing

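Over 14 alternative fits of each of the 10 genes, all 140 log2 fold changes kept their direction and 132 kept their side of the threshold. SCD stayed between -2.18 and -2.02. With a pseudocount of 1, DEGs fell to 161 lower and 391 higher over all genes (335 and 646 before) and to 1 lower among the 10 genes. Requiring an RPKM of at least 1 in all samples left 210 and 342 DEGs, with fewer genes tested. Without the fold cutoff 2237 genes passed lower and 2339 higher, among them 6 and 1 of the 10 genes and 28 and 22 of the list genes. Leaving out each replicate gave 1 to 2 lower DEGs among the 10 genes (1 without shRNA_UBC9 replicate 1) and 0 to 1 passing higher (0 without shRNA_NC replicate 3 or shRNA_UBC9 replicate 2). With a replicate block, 332 and 642 DEGs were found, and ELOVL5 no longer passed (adjusted p = 0.071, limma). It changed no other call among the 10 genes. The numbers are not shown to pair the samples, since same-numbered samples deviated with correlations of -0.367, 0.073 and -0.17. Where a cause is not given, the cause was not tested. Groups of 3 cannot give an exact permutation p below 0.1. RPKM carry no counts, so counting intervals are not given.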
